A study of Mus musculus with 6 samples.

Results

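The 10 genes described here encode feedback brakes on MAP kinase signalling, mainly on its ERK branch, and they were taken by gene name from the deposited transcript table. They were Dusp1, Dusp4, Dusp5, Dusp6, Dusp10, Spry1, Spry2, Spry4, Spred1 and Spred2. All 10 had rows among the 11808 genes of the table, and all 10 passed the filter on low values (mean over the 6 libraries not under 1 FPKM), as did 10854 genes in all. RNA was measured by mRNA sequencing in cultured vascular smooth muscle cells, which make up the muscular layer of arteries, isolated from 6-week-old male C57BL/6 mice. The controls (siScrambled, genotype label WT) and the knockdown group (siSirt7, genotype label Sirt7 knockdown) were both transfected with 20 nM siRNA in a lipid reagent, were both kept in normal growth medium with 10% serum, and are labelled 48 h. There were 3 libraries in each group, and siRNA against Sirt7, a NAD-dependent deacylase, was the difference between them. With this design, loss of Sirt7 and other effects of the siRNA cannot be told apart. The siRNA sequences were not used here. No label says that replicates are independent isolations of cells, so each p-value covers only library-to-library spread, part of which may be technical.

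In the ERK pathway, growth factor receptors activate RAS, RAF and MEK in turn, and MEK phosphorylates the ERK kinases. Active ERK induces genes whose products shut the pathway down again. Dual-specificity phosphatases (DUSPs) remove the phosphates from MAP kinases, while Sprouty and SPRED proteins act higher up, between the receptor, RAS and RAF. Because transcription of several of these genes follows ERK activity, their mRNA is widely used as a readout of the pathway, and in smooth muscle the pathway is known for its part in proliferation and in the change from a contractile to a growing state.

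The deposited FPKM (fragments per kilobase of transcript, scaled to the mapped fragments of each library) summed to between 321944 and 333683 per library. The table holds no read counts, so depth and counting error are unknown. Sirt7 itself was at 4.35, 3.56 and 4.48 FPKM in the siScrambled libraries and at 0.959, 1.25 and 0.360 in the siSirt7 libraries (log2 fold change -1.49, limma adjusted p = 0.00388). Of 8 smooth muscle markers, 7 were measured, at 2780 to 2820 FPKM in sum with siScrambled and 2440 to 2650 with siSirt7, and 3 of the 7 were called lower. They were Tagln (means of 958.1 and 784.9 FPKM), Cnn1 (94.0 and 71.4) and Smtn (96.1 and 73.3). Acta2 (1363 and 1333), Des (139.1 and 140.8), Myh11 (78.7 and 72.0) and Lmod1 (69.0 and 63.4) were not called. Over all tested genes, to be set beside each count of markers here, 12.5% were called lower. Of 7 endothelial markers only Erg was measured, at 3.36 to 4.43 and 2.64 to 3.64 FPKM, and 4 of 7 macrophage markers summed to 18.8 to 21.8 and 20.7 to 23.6. Lyz2 (means of 17.98 and 18.73 FPKM) made most of this macrophage sum. Cd68 was at 1.4 and 1.9, and Csf1r (0.57 and 0.69) and Cd14 (0.54 and 0.78) were too low to be tested. The endothelial genes Pecam1 and Cdh5 and the leukocyte genes Ptprc and Adgre1 were not analysed here. The 7 adventitial fibroblast markers summed to 195.0 to 237 and 186 to 232 FPKM, and 4 of them were tested. Of these 2 were called lower, Pdgfra and Dpt (limma adjusted p = 0.016 and 0.0485). Not called were Ly6a, with a higher mean after siSirt7 (37.1 and 46.5 FPKM, adjusted p = 0.111), and Serpinf1 (146.9 and 137.8 FPKM). The 6 mesothelial markers summed to 225 to 228 FPKM with siScrambled and 174 to 187 with siSirt7. Of the 5 tested, 2 were called lower, Upk1b (126.5 and 90.1 FPKM) and Upk3b (38.2 and 33.2). The Upk3b call was lost without siScrambled replicate 2 (adjusted p = 0.0567) and without siSirt7 replicate 2 (adjusted p = 0.0503). What part these shifts have in the results below was not tested, and in bulk RNA fewer cells of a type and less RNA per cell cannot be told apart.

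Dusp6, Spry4 and Dusp5 were lower after siRNA against Sirt7, and the other 7 feedback genes were not called in either direction. The 3 lower genes lost 45.7%, 32.7% and 30.2% of their mean FPKM, in that order. A call is a Benjamini-Hochberg adjusted p under 0.05 in limma, fitted over all 10854 genes on log2(FPKM + 1), a scale that understates the changes of low genes. By this rule 0 of the 10 were higher and 3 lower, which is 30.0% lower, while over all tested genes 12.5% were lower, 12.7% higher and 25.2% called in either direction. The count of 3 of 10 is thus close to the share of all genes called in either direction, and no test was made of the difference. The median log2 fold change of the 10 was -0.07, against -0.005 over all tested genes. The libraries of the 2 groups did not overlap for 5 of the 10, while this held for 43.9% of all genes.

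**Figure D1:**
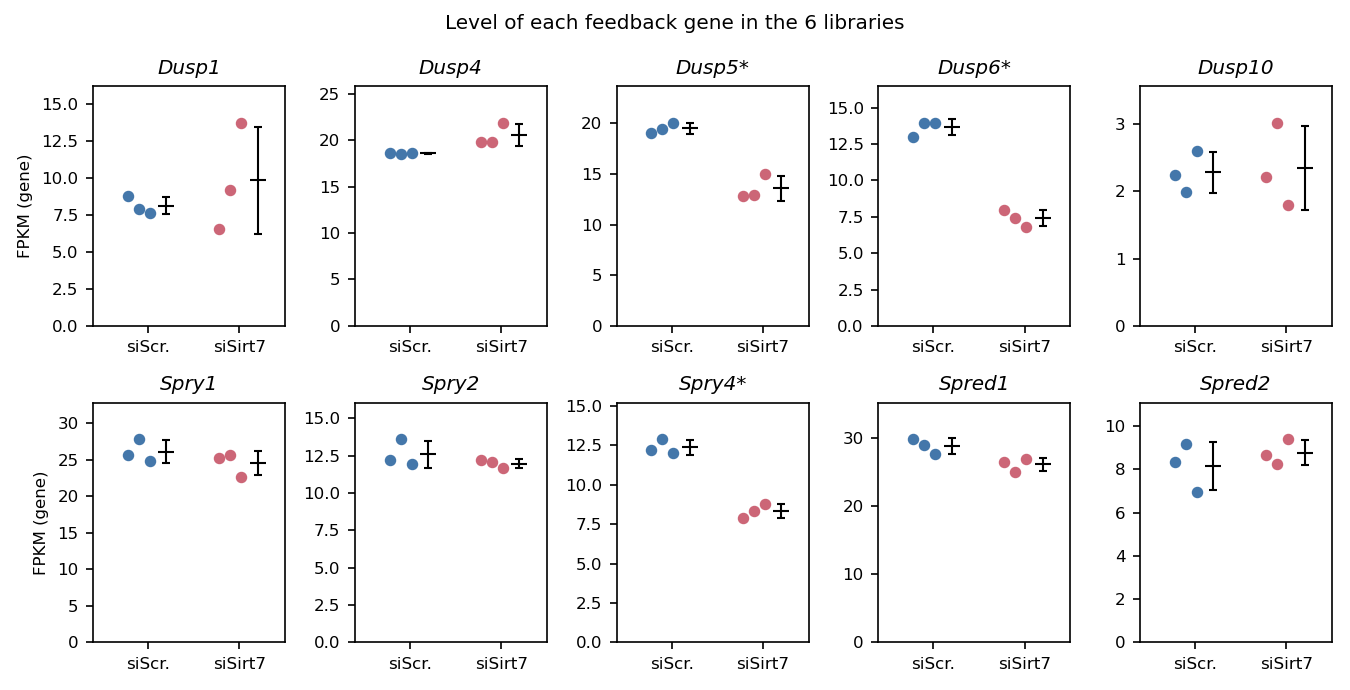
FPKM of each of the 10 genes (vertical axes, starting at 0, a scale for each gene) in the 3 siScrambled (siScr., blue) and 3 siSirt7 (red) libraries, replicates 1 to 3 from left to right, with the mean and SD (n = 3) in black. An asterisk marks the 3 called genes, Dusp5, Dusp6 and Spry4, whose siSirt7 libraries all lie below the siScrambled libraries, and Dusp1 shows the widest spread, from 6.58 to 13.8 FPKM with siSirt7.

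Dusp6 encodes the cytoplasmic phosphatase that acts on ERK with little action on other MAP kinases. It was at 13.0, 14.0 and 14.0 FPKM in the siScrambled libraries (replicates 1 to 3) and at 7.95, 7.45 and 6.82 FPKM in the siSirt7 libraries. Each siSirt7 library was thus well under the lowest control. The means were 13.65 ± 0.55 and 7.41 ± 0.57 FPKM (SD, n = 3), a 1.84-fold difference (log2 fold change -0.80, SE 0.07, 95% interval -0.97 to -0.63, limma adjusted p = 0.000885), and 1.5% of all tested genes had a lower fold change. Its row is the transcript Dusp6-201 (ENSMUSG00000019960.8, chromosome 10, 99263231 to 99267488, plus strand, GRCm38), with 3 exons and a 3' UTR of 1189 bases.

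Dusp5, the nuclear phosphatase for ERK, was at 19.0, 19.4 and 20.1 FPKM with siScrambled and at 12.9, 12.9 and 15.0 FPKM with siSirt7. The third siSirt7 library was the highest of its group and still below all controls. The means were 19.5 ± 0.53 and 13.6 ± 1.23 FPKM (SD, n = 3), a 1.43-fold difference (log2 fold change -0.49, SE 0.07, 95% interval -0.66 to -0.32, limma adjusted p = 0.00477). The gene (ENSMUSG00000034765.6) lies on chromosome 19, 53529109 to 53542431, plus strand, with 4 exons in its listed transcript. The calls of Dusp5 and Dusp6 held under each of the 14 alternatives for gene sums, with adjusted p of at most 0.0214 and 0.013.

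Dusp4 encodes a nuclear phosphatase for ERK, JNK and p38, and it was not called. It was at 18.6, 18.5 and 18.7 FPKM with siScrambled and 19.8, 19.8 and 21.9 with siSirt7, so that every siSirt7 library lay slightly above the controls. The log2 fold change was 0.13 (95% interval 0.005 to 0.26), which did not pass the adjustment over all genes (limma adjusted p = 0.119). In the control libraries Dusp5 (19.0 to 20.1) was above Dusp4 (18.5 to 18.7 FPKM), and in the siSirt7 libraries Dusp4 (19.8 to 21.9) was above Dusp5 (12.9 to 15.0). Dusp5 and Dusp6 together made 52.0%, 53.9% and 54.0% of the summed FPKM of the 5 DUSP members with siScrambled, and 42.1%, 38.8% and 36.8% with siSirt7. Both are the DUSP members called lower, so a smaller share follows from the choice of the pair and adds nothing to the calls. The share also depends on Dusp1, which made 14.2%, 12.9% and 12.2% of the sum with siScrambled. With siSirt7 Dusp1 made 13.3%, 17.6% and 23.2%.

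Dusp1, an immediate-early gene for a nuclear phosphatase that prefers p38 and JNK, was at 8.77, 7.95 and 7.67 FPKM with siScrambled and 6.58, 9.23 and 13.8 FPKM with siSirt7. The siSirt7 libraries spread on both sides of the controls, with the third the highest. The log2 fold change was 0.20 (95% interval -0.37 to 0.77, limma adjusted p = 0.583), and it was -0.05 without siSirt7 replicate 3. Other early genes varied in that library. Fos was at 8.36 FPKM there, against 8.55 and 9.78 in the other two of its group, Egr1 at 16.6 (16.1 and 17.3) and Ier2 at 10.3 (10.3 and 10.5), while Egr2 was at 3.21 (2.34 and 2.23) and Egr3 at 0.881 (0.744 and 0.562), the highest of the group for both. Fosb, at 0.940 (1.73 and 1.03), and Ier3, at 22.6 (25.8 and 23.7), were lowest there. Dusp10, a phosphatase for p38 and JNK, was the lowest of the 10 genes, at 2.25, 1.99 and 2.60 FPKM with siScrambled and 2.21, 3.03 and 1.80 with siSirt7. Its groups overlapped fully, with a log2 fold change of 0.01 (95% interval -0.36 to 0.39, adjusted p = 0.959), and the sign turned without siScrambled replicate 2 (-0.05) and without siSirt7 replicate 2 (-0.13).

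Promoter sequence was matched by symbol for 8 of the 10 genes, from RefSeq on GRCm38.p6, 250 bases before to 50 bases after the annotated start. No promoter was matched for Dusp4 or for Spry4, which was called lower. The Spred1 window ends at 117121120 on chromosome 2, before the start of the measured gene at 117121374. On both strands they were searched for the cyclic AMP response element TGACGTCA, the AP-1 site TGACTCA and the ETS word CCGGAA. The CArG box, the site of serum response factor, was the last motif. Shorter ETS forms such as GGAA were not searched. Over all 32851 promoters of this length, 1.79%, 5.2%, 14.9% and 1.63% hold each of these in turn, and over the first promoters of 8495 tested genes the shares are 3.44%, 3.3%, 30.62% and 1.28%. The promoters of Dusp5 and Dusp6 are shown because both genes fell, and that of Dusp1 because it is the early gene that varied most. In Dusp5 2 CArG boxes adjoin, at 82 to 73 and 72 to 63 bases before the start, with a TGACG half-site at 55 to 51, and 6 of the 32851 promoters (0.018%) hold at least 2. The Dusp1 promoter holds 1 cyclic AMP response element at 143 to 136 bases before the start, and the half-site TGACG, found in 20.81% of all promoters and 33.35% of those of tested genes, lies inside it on both strands and also at 191 to 187. The Dusp6 window holds none of the 4 motifs as spelled here, though it does hold GGAA. The windows of Dusp10, Spry1, Spred1 and Spred2 also hold none of the 4, while that of Spry2 holds CCGGAA 1 time after the start. Such matches describe the letters only. Capitals mark the 2 CArG boxes of Dusp5 and the response element of Dusp1, the half-sites outside it are left in lower case, and sequences run 5' to 3' on the gene's strand, for Dusp1 at chr17:26508423-26508722 (minus), Dusp5 at chr19:53528895-53529194 (plus) and Dusp6 at chr10:99262981-99263280 (plus).
Dusp5: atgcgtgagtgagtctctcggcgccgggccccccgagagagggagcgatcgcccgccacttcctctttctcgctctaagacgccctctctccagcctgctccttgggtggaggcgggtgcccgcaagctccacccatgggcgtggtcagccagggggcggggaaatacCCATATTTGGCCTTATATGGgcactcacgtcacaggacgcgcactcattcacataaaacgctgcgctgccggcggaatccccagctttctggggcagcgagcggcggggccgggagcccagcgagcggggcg
Dusp6: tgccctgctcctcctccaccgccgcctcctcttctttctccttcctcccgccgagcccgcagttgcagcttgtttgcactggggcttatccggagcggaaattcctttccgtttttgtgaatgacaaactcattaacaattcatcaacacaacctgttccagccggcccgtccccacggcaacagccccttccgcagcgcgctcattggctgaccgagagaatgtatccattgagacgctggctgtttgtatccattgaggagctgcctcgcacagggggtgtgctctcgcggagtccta
Dusp1: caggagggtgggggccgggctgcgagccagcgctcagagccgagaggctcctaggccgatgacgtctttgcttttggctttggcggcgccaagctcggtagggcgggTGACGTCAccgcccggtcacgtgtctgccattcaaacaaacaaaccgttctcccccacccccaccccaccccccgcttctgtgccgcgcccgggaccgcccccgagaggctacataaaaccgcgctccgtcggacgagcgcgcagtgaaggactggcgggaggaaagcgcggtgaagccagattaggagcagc

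Among the 3 Sprouty genes, whose products dampen receptor tyrosine kinase signalling towards ERK, Spry4 was lower and Spry1 and Spry2 were not called. Spry4 was at 12.2, 12.9 and 12.0 FPKM with siScrambled and 7.89, 8.31 and 8.77 FPKM with siSirt7. The groups did not overlap and had like spread, with means of 12.4 ± 0.46 and 8.33 ± 0.44 FPKM (SD, n = 3), 1.49-fold apart (log2 fold change -0.52, SE 0.06, 95% interval -0.67 to -0.37, limma adjusted p = 0.00252). The call held under the 14 alternatives for gene sums, with adjusted p of at most 0.0194. Spry2 had a level like that of Spry4 in the controls, at 12.2, 13.6 and 11.9 FPKM, but was at 12.2, 12.1 and 11.6 FPKM with siSirt7. Its groups overlapped, and the log2 fold change was -0.065 (95% interval -0.22 to 0.09, adjusted p = 0.514). Spry1, the most abundant of the 3, was at 25.7, 27.8 and 24.8 FPKM with siScrambled and 25.3, 25.7 and 22.7 with siSirt7 (log2 fold change -0.08, 95% interval -0.25 to 0.08, adjusted p = 0.418).

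The SPRED proteins bring the RAS inactivator neurofibromin to the membrane. Spred1 had the highest mean of the 10 genes in both groups, at 29.85, 28.98 and 27.59 FPKM with siScrambled and 26.45, 25.03 and 26.93 with siSirt7. All 3 siSirt7 libraries lay below the controls, but the difference was small and did not pass the adjustment (log2 fold change -0.14, 95% interval -0.26 to -0.015, limma adjusted p = 0.098, unadjusted p = 0.0331). Spred2 was at 8.34, 9.17 and 6.94 FPKM with siScrambled and 8.66, 8.25 and 9.39 with siSirt7, with overlapping groups (log2 fold change 0.10, 95% interval -0.16 to 0.36, adjusted p = 0.534). For the 7 genes not called, the intervals leave room for changes of the sizes given, so they are not shown to be unaffected.

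**Figure D2:**
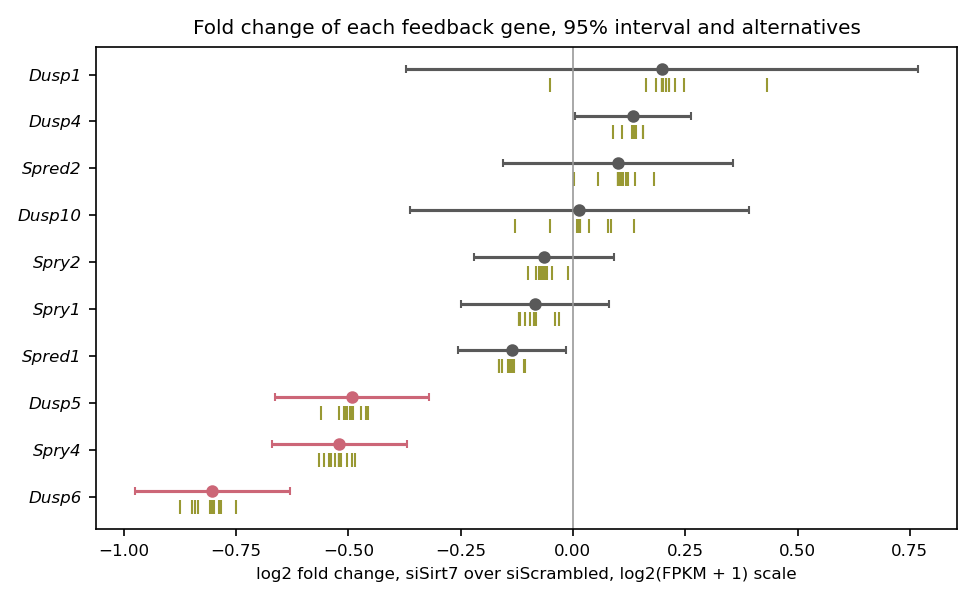
Log2 fold change of each gene, siSirt7 minus siScrambled in log2(FPKM + 1), as a point with its 95% interval from limma (3 libraries a group), red where called and grey where not. Short strokes under each point give the values under the alternatives for gene sums, and those of Dusp6 (-0.88 to -0.75), Spry4 (-0.57 to -0.49) and Dusp5 (-0.56 to -0.46) stay clear of 0, while Dusp1 and Dusp10 fall on both sides.

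By level, Spred1 and Spry1 led in both groups, with overlapping library ranges (27.6 to 29.9 and 24.8 to 27.8 FPKM with siScrambled). In the controls Dusp5 and Dusp4 followed, then Dusp6 (13.0 to 14.0), Spry2 (11.9 to 13.6) and Spry4 (12.0 to 12.9), whose neighbours in the order overlapped. Spred2 and Dusp1 overlapped with means of 8.15 and 8.13 FPKM, and Dusp10 was last. With siSirt7, Dusp6 ranked 9 of 10, below Spry4, Spred2 and Dusp1, and its range (6.82 to 7.95) overlapped that of Spry4 (7.89 to 8.77) and that of Dusp1 (6.58 to 13.8). FPKM is scaled by transcript length, which allows a rough order between genes. The FPKM program and its division of shared reads are not known, so close ranks may not hold.

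On GRCm38 the table places Dusp4 on chromosome 8 (34807297 to 34819894), Dusp1 on 17 (26505590 to 26508519) and Dusp10 on 1 (184034381 to 184075636). It places Spry1 on chromosome 3 (37639947 to 37644598), Spry2 on 14 (105891947 to 105896819), Spry4 on 18 (38586268 to 38601268), Spred1 on 2 (117121374 to 117182279) and Spred2 on 11 (19924375 to 20024026). For 7 of the 10 genes the table lists 1 transcript, so gene and transcript are the same value. Tested as single transcripts, adjusted over 17414 transcripts of which 8.99% were called, Dusp6-201 (limma adjusted p = 0.00478), Spry4-201 (0.0107) and Dusp5-201 (0.0174) were lower and 0 of the other 11 member transcripts were called. Spry1, Spred1 and Spred2 have 2 or 3 listed transcripts. Spred1-201 held 89.5% to 92.1% of the gene's FPKM in every library. Spred2-201 held 75.6%, 78.9% and 29.4% with siScrambled and 35.8%, 31.4% and 78.4% with siSirt7, so high and low libraries occurred in both groups while the gene sum stayed between 6.94 and 9.39 FPKM. Its fold change alone was -0.19 (adjusted p = 0.874), opposite in sign to that of the sum. Spry1-201 held between 62.3% and 89.0%, and its 3 transcripts share 942 coding bases and a 3' UTR of 1047 bases and differ in the 5' UTR. The sources used here do not state how shared reads were divided among transcripts.

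**Figure D3:**
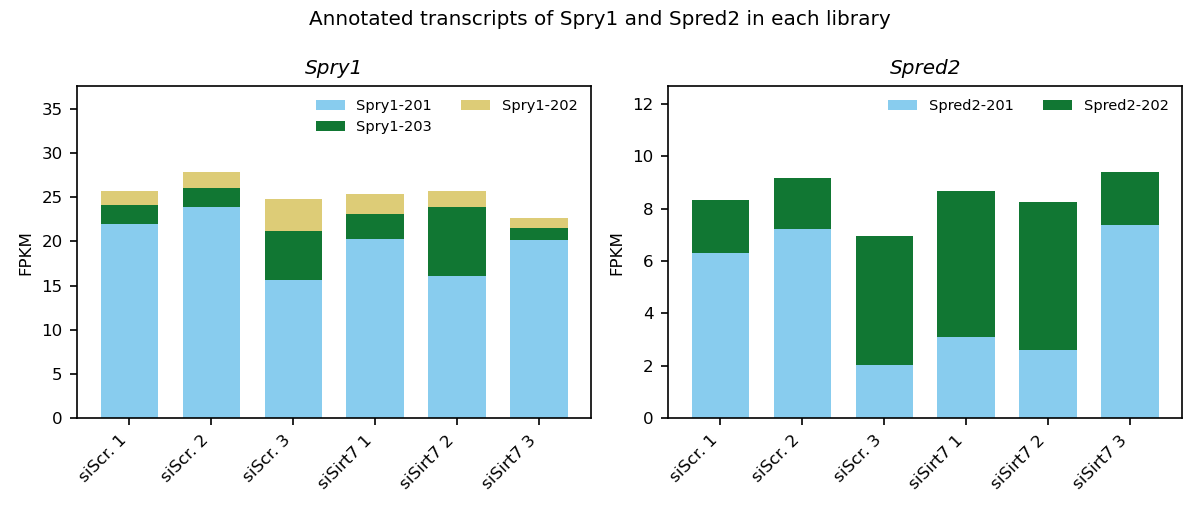
FPKM of the listed transcripts of Spry1 (left) and Spred2 (right), stacked to the gene sum, in each siScrambled (siScr.) and siSirt7 library. The Spred2 total stays between 6.94 and 9.39 FPKM while Spred2-201 ranges from 2.04 to 7.37 FPKM, with high and low libraries in both groups.

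The members were also searched for the words ATATGTA and TATGTAA, which were picked with earlier results of these data known, and the matches are given as a description. GENCODE vM21 transcripts (GRCm38) were matched for all 10 genes, by exact locus except for Spry4-201, which was matched by name alone so that its UTR may differ from the one counted, and the most abundant listed transcript was read. Of 10407 tested genes with a matched 3' UTR, 2384 (22.9%) hold at least 1 of the words. Of these 601 (25.2%) were called lower, beside 12.5% lower over all tested genes, and the difference was not tested. The 2 words merged, ATATGTAA, are held by 577 (5.5%), of which 229 (39.7%) were called lower. The 12.5% includes the genes that hold the words. Length of the 3' UTR, with a median of 1016 bases over the matched genes, was not taken into account, though a longer UTR has more places for a word. The 3' UTRs of Dusp6-201 and Dusp5-201 (1109 bases) hold neither word, and Spry4-201 (3559 bases) holds TATGTAA 1 time and ATATGTA 0 times. Dusp10-201, which was not called, holds ATATGTA 1 time, and the main transcripts of the other members hold neither word in the 3' UTR. Of the less abundant transcripts, Spred1-202 holds TATGTAA 2 times in its 3' UTR. The longer Spred2-202 has 2 matches to each word in its 3' UTR, one pair of which overlap, while the listed Spred2-201 ends at 20022577 on chromosome 11, inside the first of them. The Dusp10 and Spred2-202 windows are shown because these sites lie in genes that were not called. They are at chr1:184075468-184075497 and chr11:20022560-20022589, both on the plus strand, with ATATGTA in capitals.
Dusp10-201: acaccttgttacATATGTAtatcagaatgt
Spred2-202: aaaaacaaggccATATGTAaagaaaaaaaa

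Among other phosphatases and relatives, Dusp7 and Dusp8 fell and Dusp3 rose. Of 10 listed genes 7 were measured and tested, and Dusp2, Dusp9 and Spry3 were not analysed here. Of the 7, 1 was higher (14.3%) and 2 lower (28.6%), beside 12.7% and 12.5% over all genes. The median was -0.37 on the log2 scale. Dusp7, like Dusp6 a cytoplasmic phosphatase for ERK, was at 6.77, 7.01 and 6.64 FPKM with siScrambled and 4.53, 4.68 and 4.89 with siSirt7 (log2 fold change -0.45, limma adjusted p = 0.0042). The ERK-selective phosphatases Dusp5, Dusp6 and Dusp7 were thus each called lower, a grouping by role that was made after their values were seen. Dusp8, which acts on JNK and p38, went from 3.04 ± 0.47 to 1.45 ± 0.10 FPKM (SD, n = 3, adjusted p = 0.00629), and Dusp16, a JNK phosphatase, from 3.48 ± 0.22 to 2.75 ± 0.95 (adjusted p = 0.348). Dusp3, a small phosphatase that acts on ERK and JNK, went from 13.4 ± 0.47 to 16.0 ± 0.55 FPKM (adjusted p = 0.0211), and its call was lost without siScrambled replicates 2 and 3 (adjusted p = 0.0706 and 0.0693) and without siSirt7 replicates 2 and 3 (0.0676 and 0.0621). Its most abundant transcript alone had a fold change of -0.22 (adjusted p = 0.668).

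Of 19 tested genes of the cascade itself, from adaptors to ERK targets, 0 were higher and 2 lower (10.5%, beside 12.5% lower over all genes). The median was -0.002 on the log2 scale, and 1 gene was called without siScrambled replicate 1, 2 or 3. Mapk3 (ERK1) was at 34.96 ± 4.04 and 35.2 ± 2.86 FPKM (SD, n = 3) (limma adjusted p = 0.936). The RAS exchange factor Sos2 went from 6.38 ± 0.40 to 4.38 ± 0.09 FPKM (adjusted p = 0.00581, and 0.485 for its most abundant transcript).

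Other brakes and adaptors on the RAS-ERK route were called in 4 of 20 cases. Of the list 1 was higher (5.0%) and 3 lower (15.0%), beside 12.7% and 12.5% over all genes. The median was -0.08, and 2 were called without siScrambled replicate 1, 2 or 3. The phosphatase Ptpn11 (SHP2), which promotes RAS activation, rose from 46.2 ± 0.56 to 62.6 ± 2.29 FPKM (log2 fold change 0.43, limma adjusted p = 0.000914). The receptor ubiquitin ligase Cblb fell from 11.4 ± 0.83 to 8.53 ± 0.21 FPKM (adjusted p = 0.00986). Lrig1 and Errfi1, both inhibitors of EGF receptor signalling, went from 21.4 ± 0.72 to 13.6 ± 2.77 and from 23.9 ± 0.30 to 19.7 ± 1.29 FPKM (adjusted p = 0.0183 for each). Lrig1 lost its call without siScrambled replicates 1, 2 and 3 (0.0529, 0.063 and 0.0542) and siSirt7 replicate 2 (0.0601), and Errfi1 without siScrambled replicates 1, 2 and 3 (0.0621, 0.0556 and 0.0542).

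In the JNK, p38 and ERK5 branches 1 of 16 tested genes was higher (6.2%) and 2 were lower (12.5%). Over all genes the shares were 12.7% and 12.5%. The median was -0.09, and 1 gene of these branches was called without siSirt7 replicate 2. The JNK and p38 activator Map2k4 fell from 25.1 ± 0.49 to 18.2 ± 0.90 FPKM (limma adjusted p = 0.00219), the p38 target kinase Mapkapk2 went from 53.5 ± 0.59 to 48.6 ± 1.04 (adjusted p = 0.0279) and the upstream kinase Map3k5 (ASK1) from 1.91 ± 0.22 to 3.00 ± 0.20 FPKM (adjusted p = 0.0163). The Mapkapk2 call was lost without any one of siScrambled replicates 1, 2 and 3 (0.0712, 0.0815 and 0.0894) or siSirt7 replicates 1 and 2 (0.0733 and 0.0764), and that of Map3k5 without siSirt7 replicate 2 (0.0561).

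Transcripts known to respond to ERK, and the ETS factors that ERK acts on, went both ways. Of 22 tested genes 3 were higher (13.6%) and 6 lower (27.3%), beside 12.7% and 12.5% over all genes. The median was -0.18 on the log2 scale. The early growth response factor Egr1 was at 27.0, 27.3 and 27.1 FPKM with siScrambled and 16.1, 17.3 and 16.6 with siSirt7 (log2 fold change -0.67, limma adjusted p = 0.000368), and cyclin D1 (Ccnd1) went from 54.8 ± 2.70 to 18.8 ± 0.93 FPKM (adjusted p = 7.60e-05). The ETS repressor Elk3, the ephrin receptor Epha2, the EGF family ligand Hbegf and the early gene Ier2 fell 1.57-fold, 1.32-fold, 1.31-fold and 1.25-fold. Against these, the AP-1 member Fosl1 rose from 8.41 ± 0.64 to 16.0 ± 0.65 FPKM (adjusted p = 0.000681), and Maff and Myc were 1.29-fold and 1.33-fold higher. Myc lost its call without siScrambled replicates 2 and 3 (0.067 and 0.0668) and siSirt7 replicates 1 and 3 (0.0609 and 0.0602). Etv5, with Spry4 and Dusp6 a common ERK readout, was at 7.90, 8.03 and 8.18 FPKM and at 7.34, 6.75 and 6.34, each siSirt7 library lower, but was not called (log2 fold change -0.21, adjusted p = 0.069). Phlda1, another such readout, was at 57.8 ± 2.06 and 52.3 ± 1.82 FPKM (adjusted p = 0.0591, but 0.0491 without siSirt7 replicate 3 and 0.0402 after quantile normalization). Others of the 13 genes not called lay on both sides of 0. Ets1 and Etv4 had log2 fold changes of -0.56 and -0.06 (limma adjusted p = 0.0993 and 0.852). Those of Fos and Ier3 were 0.08 and 0.12 (adjusted p = 0.515 and 0.3).

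Among the receptor tyrosine kinases that feed the pathway, 3 of 15 tested genes were higher (20.0%) and 4 lower (26.7%). Over all genes 12.7% were higher and 12.5% lower. The median of the list was 0.08. Fgfr1, an FGF receptor, was at 44.4, 43.2 and 43.1 FPKM with siScrambled and 63.0, 66.1 and 63.5 with siSirt7 (log2 fold change 0.55, limma adjusted p = 0.000352). The collagen receptor Ddr1 and the receptor Ror1 rose 1.48-fold and 1.30-fold (adjusted p = 0.00334 and 0.00772), with 0.358 for the most abundant Ddr1 transcript. Ntrk3, Pdgfra, Ror2 and Ddr2 were 1.58-fold, 1.33-fold, 1.43-fold and 1.12-fold lower, with adjusted p of 0.00793, 0.016, 0.0205 and 0.0282. Without single libraries Pdgfra reached 0.056 (siScrambled replicate 3) and Ror2 0.0543, 0.0638, 0.0592 and 0.0602 (siScrambled replicates 1 and 2, siSirt7 replicates 2 and 3), and Ddr2 lost its call whichever library was left out, at 0.0531 to 0.0851. The platelet-derived growth factor receptor Pdgfrb (107.7 ± 1.61 and 109.7 ± 2.06 FPKM) and Egfr (21.1 ± 0.89 and 22.4 ± 0.82) were not called. Called genes of these lists named beyond the 3 with the smallest adjusted p of each list, and genes named as not called, were chosen after their values were seen.

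**Figure D4:**
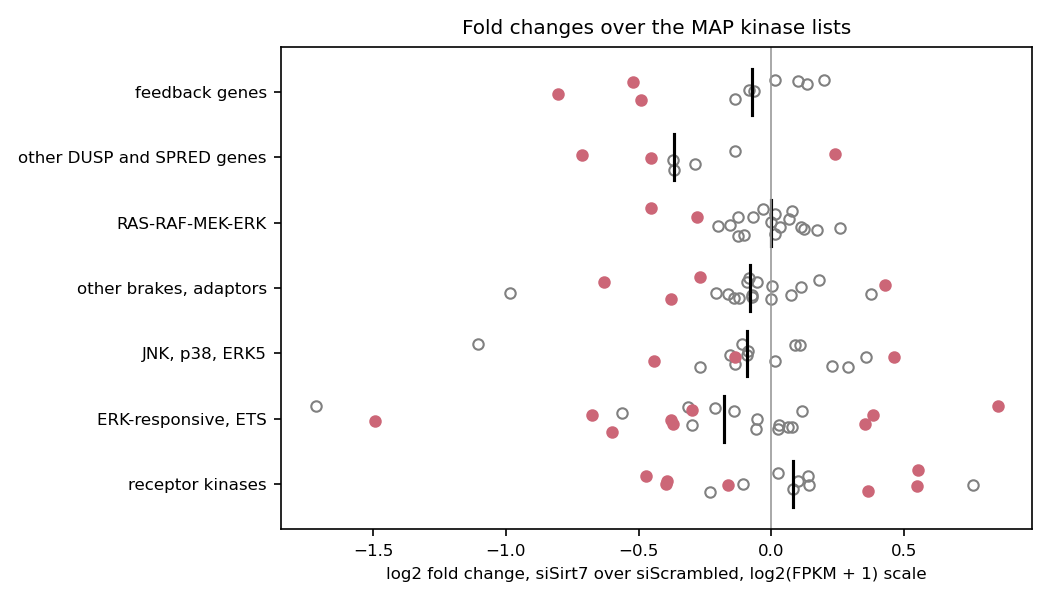
Log2 fold change, siSirt7 minus siScrambled in log2(FPKM + 1), of each tested gene of the 10 feedback genes and of 6 lists of related genes, red where called by limma and open where not, with a black line at each list's median. The lower calls reach -0.80 in the feedback genes (Dusp6) and -1.49 in the ERK-responsive list (Ccnd1), while the medians lie between -0.37 and 0.08.

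Dusp6 was compared with 7400 other genes averaging 5 FPKM or more. Provisional gene model names (Gm and a number, or ending in Rik) were left out. The genes most like Dusp6 over the 6 libraries, by Pearson's r of log2(FPKM + 1), were Adipor1 (0.9992), Extl2 (0.9989) and Upk1b (0.9984). Of these 7400 genes, 839 reached an r of at least 0.9 with Dusp6. Dusp6 was taken as the called member with the smallest adjusted p, so r over both groups mostly reflects the difference between them. Adipor1, Extl2 and Upk1b were themselves called lower (limma adjusted p = 0.000778, 0.00224 and 0.00095). Shared regulation was not tested.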

How the data were processed

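The authors sequenced mRNA libraries of cultured mouse vascular smooth muscle cells. The deposited values are FPKM, 1 per transcript and library, per the file headers. Per the submitters' processing notes, reads were aligned with HISAT2 to GRCm38 (mm10), and the sources used here give no version, FPKM program, annotation release or strand setting. Each of the 23242 transcripts has at least 0.5 FPKM in its higher group. Of nonzero values 99.8% to 99.9% were distinct in each library, so no steps of whole reads were seen and depth stays unknown.

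Transcript values were summed to genes (Python 3.11.15, pandas 2.3.3, numpy 2.4.6, matplotlib 3.10.9). Genes whose mean over libraries reached 1 FPKM were tested on log2(FPKM + 1) in R 4.3.3 by limma 3.58.1, with its trend and robust settings, at the deposited scaling, after a check on simulated data. Groups came from sample titles. The members, the 6 lists, the words and the rule for named genes (per list, the 3 called genes with the smallest adjusted p) were chosen with earlier results of these data known, and promoter motifs after the values were seen. Alternatives covered scaling, filter, pseudocount, moderation, replicate block, single transcripts and left-out libraries. No protein sequences were used here. Some genes of the lists are counted but not reported here by name.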

Additional observations from a re-analysis of the deposited data

How the results depend on the processing

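The members' counts (0 higher, 3 lower) were equal to those reported under all 14 alternatives for gene sums. Leaving out 1 library at a time gave 900 to 1111 genes lower (900 without siScrambled replicate 2, against 1356) and 947 to 1106 higher, and called 1 to 2 genes of the RAS-RAF-MEK-ERK cascade, 2 to 5 other brakes and adaptors and 1 to 3 genes of the JNK, p38 and ERK5 branches. These fits rest on fewer libraries. With the replicate number as a block, 1 gene of the JNK, p38 and ERK5 branches was called, against 3, and 946 genes were higher and 981 lower over the whole table. The numbers are not shown to pair the libraries, since deviations of same-numbered libraries correlated at 0.007, 0.033 and -0.015.

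Signs turned in 10 of 802 values over 54 genes that were checked one by one. The genes with a turned sign did not include Dusp5, Dusp6 or Spry4. Without single libraries, Dusp1 ranged from -0.05 to 0.43, Dusp10 from -0.13 (and -0.05) to 0.14 and Mapk3 from -0.067 (and -0.039) to 0.095 on the log2 scale. Quantile normalization gave Mapk3 -0.035 and Pdgfrb -0.02. The most abundant transcript alone gave Spred2 -0.19, Dusp3 -0.22 and Mapk3 -0.904. The cause was not tested. Calls were lost in 59 values and gained in 3. With the block, Dusp3, Map3k5, Mapkapk2, Errfi1, Ddr2, Ror2 and Upk3b lost theirs. The 3 libraries per group and unknown depth limit the precision for low genes such as Dusp10.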

Other observations

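Emp1, an epithelial membrane protein gene of the ERK-responsive list, chosen after its values were seen, was at 127.5, 142 and 135.4 FPKM with siScrambled and at 91.9, 96.0 and 6.83 with siSirt7. The third siSirt7 library was far below the other two of its group. The gene was not called over the 6 libraries (log2 fold change -1.72, limma adjusted p = 0.255) and was lower without siSirt7 replicate 3 (-0.52, adjusted p = 0.00498).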
